A study of Rattus norvegicus with 4 samples.

Results

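Prkaa1 encodes AMPK alpha 1, a catalytic subunit of AMP-activated protein kinase. The tables of this rat astrocyte series hold 3 noncoding transcripts under that name, out of 20524 transcripts in all. They form 1 of the 17290 loci obtained by summing transcripts that share a name and a chromosome. The locus was taken up because of its measured counts, so its own differences between libraries are given as a description, without a test. Rows named for the other AMPK subunits were taken by name: Prkab1 has 2 transcripts and Prkag1 has 1. Prkaa2, Prkab2 and Prkag2 were looked up in the same way and had no locus.

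The cells were cortical astrocytes of newborn Wistar rats, less than 24 h old, first grown in serum. They were then kept on coverslips above cortical neurons, separated from them by paraffin dots, in a shared medium. For all libraries this co-culture lasted 48 h before treatment. The 2 control libraries came from untreated cells. The 2 OGD libraries came from co-cultures kept without glucose at 1% oxygen during 45 min, followed by 24 h of recovery in ordinary medium and air. This is a model of ischemic preconditioning, and RNA was taken after the recovery period. The labels do not say that replicate numbers 1 and 2 stand for separate cultures, nor what else the number marks. So the p-values below reflect only how these libraries vary, and that variation may be technical.

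AMPK is a trimer of a catalytic alpha, a scaffolding beta and a nucleotide-binding gamma subunit. It is switched on when ATP falls and AMP and ADP rise, mainly through phosphorylation of the alpha subunit by LKB1 or, on calcium entry, by CaMKK2. Active AMPK favours glucose uptake, glycolysis and autophagy and restrains the synthesis of lipid and protein. Astrocytes are known for a high glycolytic capacity, which they draw on when oxygen is short. The values here are for noncoding transcripts listed at the genes, not for the messenger RNAs or proteins. Whether reads of the messenger RNA entered these counts is not given in the sources used here, and neither is the use of strand.

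Depth was alike in all libraries, at 2513804 to 2646300 lncRNA counts, which were 9.98% to 10.6% of the library totals implied by the deposited FPKM. The labelled cell type was checked at loci named for marker genes, and bulk counts cannot tell fewer cells of a type from less RNA per cell. For astrocytes, 4 of 10 markers were found, and 0 of them were at 0 in all libraries. Gfap, whose filament protein defines the cell type, had the most counts of these, at 51 to 139 per library. Aldoc had 13 to 26, Slc1a3 6 to 11 and Slc1a2 2 to 4. Neuron, microglia, oligodendrocyte lineage, fibroblast and endothelial names also had counts, with 3 or 4 loci found per list. Fn1, of the fibroblast list, had more counts than Gfap, at 1428 to 3494 per library. None of the 4 ependymal names had a locus.

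The 3 Prkaa1 transcripts lie in a row on chromosome 2, within 3816 bases. AceView, a catalogue of transcripts built from cDNA sequences, gave them their names and lists each as unspliced. Prkaa1.c (NONRATT015055.2) runs from 54889588 to 54890822 and Prkaa1.d (NONRATT015056.2) from 54890797 to 54892040, so that they overlap by 26 bases. Prkaa1.e (NONRATT015057.2) runs from 54892433 to 54893403, beginning after a gap of 392 bases. Positions are those of the tables, whose build is uncertain, so their place relative to the exons of Prkaa1 was not determined. Unspliced entries make up 43.0% of all listed transcripts.

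Prkaa1.e was abundant in the libraries numbered 1 and almost without reads in those numbered 2, in control and OGD alike. Its counts were 135 in control 1 and 155 in OGD 1, against 1 in control 2 and 1 in OGD 2. The libraries of each number stood together and far from the other number, while control and OGD overlapped. As CPM, counts scaled to the TMM-adjusted total of the tested loci, the level was 53.8 ± 6.55 in number 1 and 0.408 ± 0.0131 in number 2 (SD, n = 2). On 290 against 2 counts, scaled by the same totals, the ratio of number 1 to number 2 was 132 (95% counting interval 36.1 to 1093). The interval covers counting error only.

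Read per length, Prkaa1.e changed its place among all transcripts between the numbers. Its deposited FPKM, a level scaled to transcript length and library size, were 5.57 in control 1 and 6.40 in OGD 1. In control 2 and OGD 2 they were 0.0391 and 0.0412. The level exceeded that of 89.8% of listed transcripts in control 1 and 91.4% in OGD 1. In control 2 and OGD 2 it exceeded 15.1% and 14.4%.

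The neighbouring Prkaa1.c and Prkaa1.d did not share this division. Prkaa1.c had 9 counts in control 1, 11 in control 2, 12 in OGD 1 and 18 in OGD 2. Prkaa1.d had 4, 4, 5 and 4 counts in the same order. Both were low in all 4 libraries, and for both the ranges of the numbers overlapped in raw counts. Together they had 30 counts in number 1 and 37 in number 2, a scaled ratio of number 1 to number 2 of 0.737 with a 95% counting interval of 0.440 to 1.23. In FPKM, Prkaa1.c lay between 0.292 and 0.583 and Prkaa1.d between 0.122 and 0.161, below Prkaa1.e in number 1 and above it in number 2.

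The share of Prkaa1.e in the locus is given with intervals for counting error only. It took 91.2% of the locus's counts in control 1 (95% Wilson interval 85.6% to 94.8%) and 90.1% in OGD 1 (84.7% to 93.7%). It took 6.25% in control 2 (1.11% to 28.3%) and 4.35% in OGD 2 (0.772% to 21.0%). Most reads of the locus thus fell in 1 transcript in number 1 and in the other 2 transcripts in number 2.

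**Figure D1:**
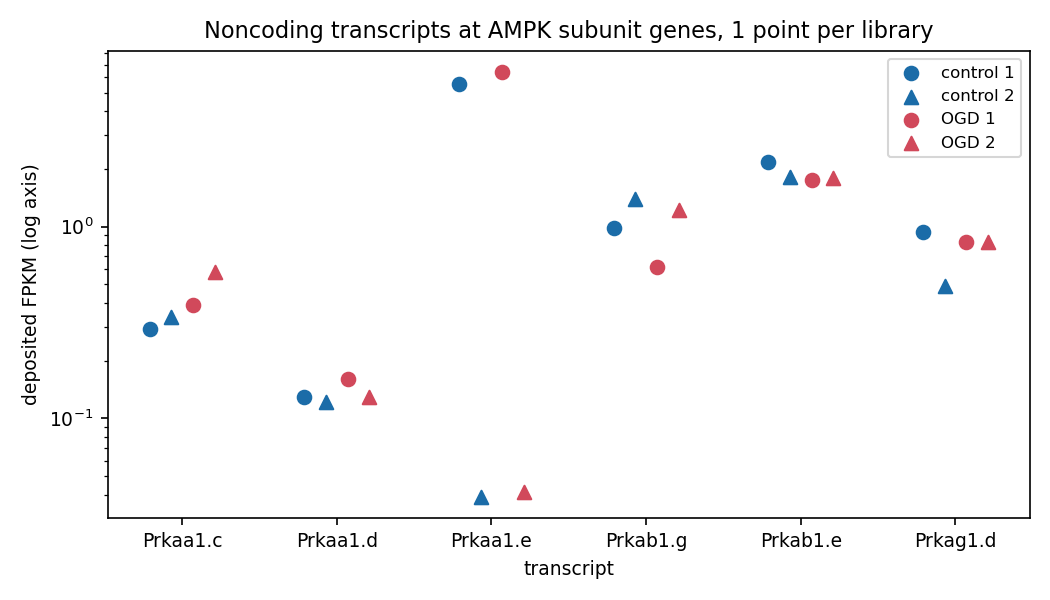
Deposited FPKM on a log axis for the 6 transcripts named for AMPK subunits, 1 point per library. Blue is control, red is OGD, circles are replicate number 1 and triangles number 2. Prkaa1.e is at 5.57 and 6.40 in the number 1 libraries and at 0.0391 and 0.0412 in the number 2 libraries.

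Summed over its 3 transcripts, the Prkaa1 locus had 148 counts in control 1, 16 in control 2, 172 in OGD 1 and 23 in OGD 2. In CPM that was 59.3 ± 7.73 in number 1 and 7.98 ± 2.27 in number 2 (SD, n = 2), a fitted log2 difference of number 2 minus number 1 of -2.89. The libraries of the numbers did not overlap, which was also so for 47.9% of the 9581 tested loci. By edgeR's adjusted p, 1.33% of tested loci differed between numbers, 0.825% being higher in number 2 and 0.501% lower, and nothing is read from this for Prkaa1, which was chosen on that difference. On the transcripts as deposited, Prkaa1.e alone had a log2 difference of -6.88, a fitted value that depends on the prior count.

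Between control and OGD the Prkaa1 locus measured 30.1 ± 33.6 and 37.2 ± 39.0 CPM (SD, n = 2). The SDs exceed the means and the groups overlapped. The fitted log2 difference of OGD minus control was 0.30, and it went from -1.63 without OGD replicate 1 to 2.54 without control replicate 1. Within number 1, scaled counts of the locus were 1.20-fold higher in OGD (95% counting interval 0.960 to 1.51), and within number 2, 1.50-fold higher (0.761 to 3.05). For Prkaa1.e alone the value within number 1 was 1.19 (0.937 to 1.51). Over both numbers the locus was at 1.24 (1.00 to 1.53), and Prkaa1.c and Prkaa1.d together at 1.45 (0.869 to 2.45). These intervals cover counting error within the libraries compared, not the spread between replicates. In CPM Prkaa1.c and Prkaa1.d were each higher in OGD without overlap, on 4 to 18 counts per library. Of tested loci, 28.0% did not overlap between groups.

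Marker levels also differed between the numbers. Summed astrocyte names were at 51.0 CPM in control 1 and 64.4 in OGD 1, and at 34.3 in control 2 and 30.9 in OGD 2. Fibroblast and meningeal names, 3 of 7 found, were at 680 and 1094 CPM in number 1 and at 1736 and 1588 in number 2. Microglia and macrophage names, 3 of 9 found, were at 28.4 and 10.9 CPM in number 1 and at 43.4 and 35.9 in number 2. Of these, Ptprc was at 21.1 and 4.90 CPM in number 1 and at 36.3 and 29.6 in number 2. Cd68 overlapped between numbers, at 6.55 and 5.65 CPM and at 6.38 and 5.42, and Aif1 had 1 or 2 counts per library. Neuron names, 4 of 9 found, were at 89.5 and 110 CPM and at 119.5 and 119.7. In that list Syn1 divided by treatment, at 0.728 and 0.398 CPM in control and 36.9 and 18.8 in OGD. Its log2 fold change was 5.50 (SE 0.63, adjusted p = 0.185 in edgeR). Gria2, the most abundant of the list, was at 81.2 and 70.4 CPM in number 1 and 109.6 and 92.6 in number 2. Rbfox3 was also higher in number 2 without overlap. Oligodendrocyte lineage names, 3 of 8 found, were at 8.01 and 7.91 CPM and at 17.1 and 10.0. None of these 5 lists overlapped between numbers, which also held for 47.9% of tested loci, and 0 of the found loci were at 0 throughout. Endothelial and mural names, 3 of 9 found, divided by treatment, as 28.0% of tested loci did, at 4.37 and 8.37 CPM in control and 32.4 and 25.4 in OGD. Most of that sum was Abcc9, a potassium channel subunit gene of mural cells, at 2.18 and 6.77 CPM in control and 32.0 and 22.5 in OGD, while Pecam1 and Tek had 0 to 6 counts per library. Of 14 marker loci tested, 1, the collagen gene Col1a1, passed edgeR's adjusted threshold between numbers, where 1.33% of all tested loci did. The part of these differences in the values of Prkaa1 and of the pathway loci below was not tested.

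Few of the listed transcripts met limits set for near-complete loss between numbers. With limits chosen after the values were seen, 9 of 20524 transcripts (0.0439%) had at least 100 counts in both number 1 libraries and at most 3 in both number 2 libraries. Of these, 6 were StringTie assemblies, all at 0 in number 2, and 3 carried AceView names. Beside Prkaa1.e the latter were Map4, named for a microtubule-associated protein, with 382 counts in control 1 and in OGD 1 against 2 in control 2 and in OGD 2, and veegloy. The locus veegloy had 161 and 141 counts in number 1 and 3 and 2 in number 2. The reverse division, high in number 2, held for 6 transcripts (0.0292%). By treatment, 5 transcripts (0.0244%) were high in control only and 4 (0.0195%) in OGD only. The shares are over all listed transcripts, including those with too few counts in any library to meet the limits. Prkaa1.e was itself taken up for its counts. These counts describe the 4 libraries.

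The transcripts of Prkaa1 were also set beside those of other loci. The spread of the log2 ratio of number 2 to number 1 among its 3 transcripts was 7.33, using TMM-scaled sums with a pseudocount of 0.5. It ranked 11 of 1405 loci that have at least 2 such transcripts with 10 counts or more over all libraries, StringTie assemblies left aside. The median spread was 0.65. For the ratio of OGD to control the spread at Prkaa1 was 0.43, ranked 898, with a median of 0.62 over the same loci. The spread at Prkaa1 was thus above the median by number and below it by treatment. Prkaa1 was chosen on its difference between numbers, so its rank by number is a description and nothing is read from it.

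The loci next to Prkaa1 were compared in the same way. After the locus lie flashoy, 7400 bases on, with 10, 5, 14 and 12 counts in control 1, control 2, OGD 1 and OGD 2, and flawshoy, 49621 bases on, with 65, 58, 82 and 69. Before it lies Rpl37, named for a protein of the large ribosomal subunit, 55001 bases away, with 124, 86, 116 and 80 counts. Rpl37 was higher in number 1 without overlap, and 47.9% of tested loci did not overlap between numbers. By edgeR's quasi-likelihood test between numbers, Rpl37 stood at -0.39 on the log2 scale (SE 0.19, adjusted p = 0.388). The values were -0.35 (SE 0.57, adjusted p = 0.833) for flashoy and -0.07 (SE 0.26, adjusted p = 0.934) for flawshoy.

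Farther out, bleyshoy, 78020 bases before Prkaa1, had 4, 5, 3 and 3 counts. The transcript at C7, a complement component gene 148032 bases before Prkaa1, had 5 counts in control 1 and 14 in OGD 1, and 0 in control 2 and OGD 2. Its counts thus divided by number, as those of Prkaa1.e did, at a far lower level. Both had too few counts to be tested. By treatment, flashoy stood at a log2 fold change of 0.85 (SE 0.50) and flawshoy at 0.35 (SE 0.24), each with an adjusted p of 1.00 in edgeR.

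**Figure D2:**
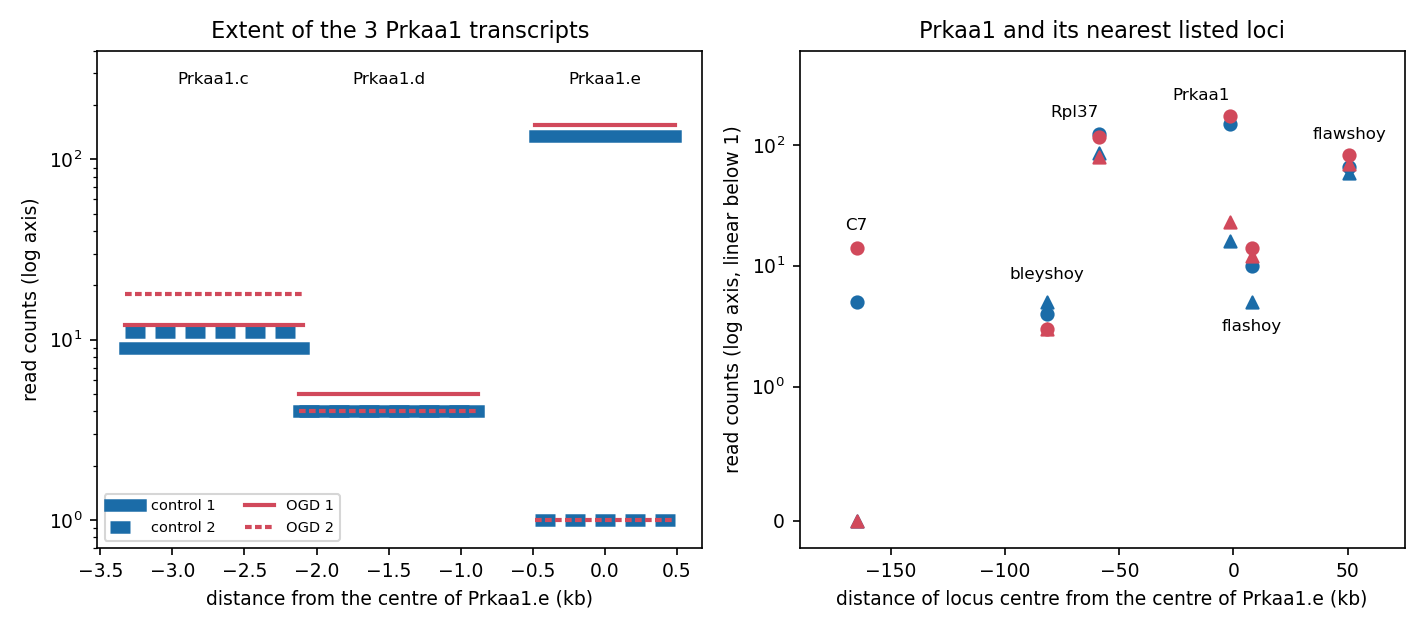
Left, the 3 Prkaa1 transcripts drawn over their extent in kb from the centre of Prkaa1.e, at the height of their read counts on a log axis; thick blue is control, thin red OGD, solid number 1, dashed number 2. Right, counts of Prkaa1 and its nearest listed loci by distance, with circles for number 1 and triangles for number 2. Prkaa1.e has 135 and 155 counts in number 1 and 1 and 1 in number 2, while flawshoy stays between 58 and 82.

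Among the other subunits, Prkab1 encodes the beta 1 subunit, which tethers alpha to gamma. Its locus (chromosome 12, 46320015 to 46321152) had 48 counts in control 1, 47 in control 2, 37 in OGD 1 and 43 in OGD 2. The levels were 18.1 ± 0.890 CPM in control and 15.9 ± 2.82 CPM in OGD (SD, n = 2). They overlapped between the groups but not between the numbers, as at 47.9% of tested loci for the numbers. By edgeR the log2 fold change was -0.18 (SE 0.29, adjusted p = 1.00) after OGD and 0.22 (SE 0.27, adjusted p = 0.766) between numbers. Scaled counts in OGD were 0.876 times those in control, with a 95% counting interval of 0.642 to 1.19.

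Neither Prkab1 transcript differed between numbers as far as Prkaa1.e, which was taken up for its counts. The scaled ratio of number 1 to number 2 was 0.962 at Prkab1.e and 0.537 at Prkab1.g (95% counting interval 0.248 to 1.11). At Prkaa1.c it was 0.658 and at Prkaa1.d 1.02. The unspliced Prkab1.e had 40, 35, 32 and 33 counts in control 1, control 2, OGD 1 and OGD 2. The spliced Prkab1.g had 8, 12, 5 and 10 counts in that order. Prkab1.e was at 1.75 to 2.18 FPKM in all libraries, below Prkaa1.e in number 1 and above it in number 2.

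Prkag1 encodes the gamma 1 subunit, which binds AMP, ADP and ATP. Its spliced transcript (chromosome 7, 140492071 to 140501751, 387 bases long) had 9, 5, 8 and 8 counts in control 1, control 2, OGD 1 and OGD 2. These were too few to be tested. In CPM both the groups and the numbers overlapped. In FPKM it lay between 0.490 and 0.932.

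Around AMPK, 115 further genes in 6 lists and the other subunits were looked up by name, and 45 had a locus, 26 of them with enough counts to be tested. The lists were drawn up with earlier results of these data known. After OGD, 0 of the 26 passed edgeR's adjusted threshold, where 0.0835% of all tested loci did, 0.0417% in each direction. In simulated counts the same fit called 0% of loci changed 2-fold and 52% of those changed 4-fold. A locus that did not pass, here or in the lists below, is thus not shown to be unchanged. Of the 26, 3 had an unadjusted p under 0.05, against 2.33% of all, and DESeq2 called 0, against 0.397% of the loci it gave an adjusted p. Their median log2 fold change was -0.06, with 10 above 0 and 16 below, beside -0.0018 over all tested loci. Between numbers, 0 passed in edgeR, against 1.33% of all, and 3 had an unadjusted p under 0.05, against 16.5% of all. DESeq2 called 1, against 4.92% of the loci it gave an adjusted p. The median there was 0.01, beside -0.0089 over all.

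Of the upstream kinases and regulators, 4 of 23 were tested and 0 passed in edgeR in either comparison, with 0 at an unadjusted p under 0.05. Stk11, the gene of LKB1, had 94, 96, 101 and 96 counts in control 1, control 2, OGD 1 and OGD 2. It measured 36.2 ± 2.86 CPM in control and 39.0 ± 1.40 in OGD (SD, n = 2), a log2 fold change of 0.11 (SE 0.22). Ppm1a, a phosphatase gene and the most abundant of the list, measured 49.0 ± 3.41 and 50.4 ± 0.581 CPM. Camkk1, a calcium-dependent kinase gene, had 39, 13, 6 and 16 counts and stood at -1.13 after OGD on the log2 scale (SE 0.75, adjusted p = 1.00). Cab39l, whose protein supports LKB1, stood at -0.18 (SE 0.38). Tab1, listed as Map3k7ip1, had 39 counts in OGD 1 and 1 in each other library.

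Among targets in lipid and sugar metabolism, 4 of 19 were tested and 0 passed in edgeR in either comparison, with 1 at an unadjusted p under 0.05 in each. Srebf1, named for a transcription factor of fatty acid synthesis, had 28, 162, 27 and 76 counts in control 1, control 2, OGD 1 and OGD 2. At Srebf1 both number 2 libraries were above both number 1 libraries, the opposite of Prkaa1, and 47.9% of tested loci did not overlap between numbers. Its log2 fold change of number 2 against number 1 was 2.24 (SE 0.40, adjusted p = 0.0714 in edgeR), and it passed in DESeq2 (adjusted p = 6.7e-04) and without OGD replicate 2 in edgeR (2.67, adjusted p = 0.0115). Srebf2, the related factor of cholesterol synthesis, measured 15.5 ± 1.80 CPM in control and 29.7 ± 5.43 in OGD (SD, n = 2), without overlap, as at 28.0% of tested loci. Its log2 fold change was 0.94 (SE 0.29, adjusted p = 1.00).

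Pfkfb3 makes the activator of phosphofructokinase that AMPK signalling raises in glycolysis, and its locus was the most abundant of that list. It had 478, 272, 484 and 383 counts in control 1, control 2, OGD 1 and OGD 2. The log2 fold change was 0.28 (SE 0.29) after OGD and -0.41 (SE 0.21, adjusted p = 0.409) between numbers. Txnip, which restrains glucose uptake, had 18, 8, 12 and 12 counts and stood at -0.44 (SE 0.46) between numbers.

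In the list of mTOR, autophagy and translation, 6 of 18 were tested and 0 passed in edgeR in either comparison, with 0 at an unadjusted p under 0.05 after OGD and 1 between numbers. Atg9a, of the autophagy membrane protein, was the most abundant at 83.5 ± 10.5 CPM in control and 97.1 ± 8.71 in OGD (SD, n = 2). Rb1cc1, whose protein FIP200 scaffolds the ULK1 complex, had 13, 12, 34 and 17 counts, which put OGD above control by 1.06 in log2 (SE 0.45, adjusted p = 1.00). It did not overlap between groups, as at 28.0% of tested loci. The locus listed as Harbi1l, which RefSeq gives as another name of Atg13, stood at -0.51 (SE 0.36) after OGD and at 0.44 (SE 0.36) between numbers. Eif4ebp1, a brake on translation, had 33, 51, 16 and 41 counts and a difference between numbers of 1.05 in log2 (SE 0.40, adjusted p = 0.286).

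For transcription, mitochondria and cell cycle, 6 of 21 were tested and 0 passed in edgeR in either comparison, with 1 at an unadjusted p under 0.05 in each. Hdac4, a class IIa histone deacetylase gene, had 4, 2, 14 and 10 counts. It did not overlap between groups, as at 28.0% of tested loci. Its log2 fold change after OGD was 2.01 (SE 0.58, adjusted p = 1.00). Hdac7, of the same class, had 16, 38, 10 and 20 counts and stood at 1.28 (SE 0.46, adjusted p = 0.260) between numbers and at -0.79 (SE 0.66) after OGD. Crtc2, a CREB coactivator gene and the most abundant here, measured 47.3 ± 6.65 CPM in control and 41.5 ± 3.81 in OGD (SD, n = 2). Between numbers Gabbr2, a GABA-B receptor gene, was at -0.41 in log2 (SE 0.29).

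Kinases related to AMPK were tested at 2 of 13 genes, and 0 passed in edgeR in either comparison, with 0 at an unadjusted p under 0.05. Mark2, a cell polarity kinase gene, measured 36.0 ± 5.23 CPM in control and 37.7 ± 9.05 in OGD (SD, n = 2). Its counts were 109 and 117 in number 1 and 81 and 75 in number 2, or -0.40 in log2 (SE 0.20, adjusted p = 0.404). Sik2, listed as Snf1lk2, was at -0.31 (SE 0.29) after OGD and 0.38 (SE 0.25) between numbers.

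For the balance of adenine nucleotides and phosphocreatine, 3 of 16 were tested and 0 passed in edgeR in either comparison, with 1 at an unadjusted p under 0.05 after OGD and 0 between numbers. Ak3, the adenylate kinase of the mitochondrial matrix, was the most abundant locus of all these lists, at 697 ± 49.2 CPM in control and 660 ± 61.0 in OGD (SD, n = 2). Adk, of the adenosine kinase that turns adenosine into AMP, had 12 and 13 counts in control and 3 and 4 in OGD. It did not overlap between groups, as at 28.0% of tested loci. Its log2 fold change was -1.74 (SE 0.53, adjusted p = 1.00). Ampd2, an AMP deaminase gene, had 6, 23, 13 and 8 counts in control 1, control 2, OGD 1 and OGD 2.

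**Figure D3:**
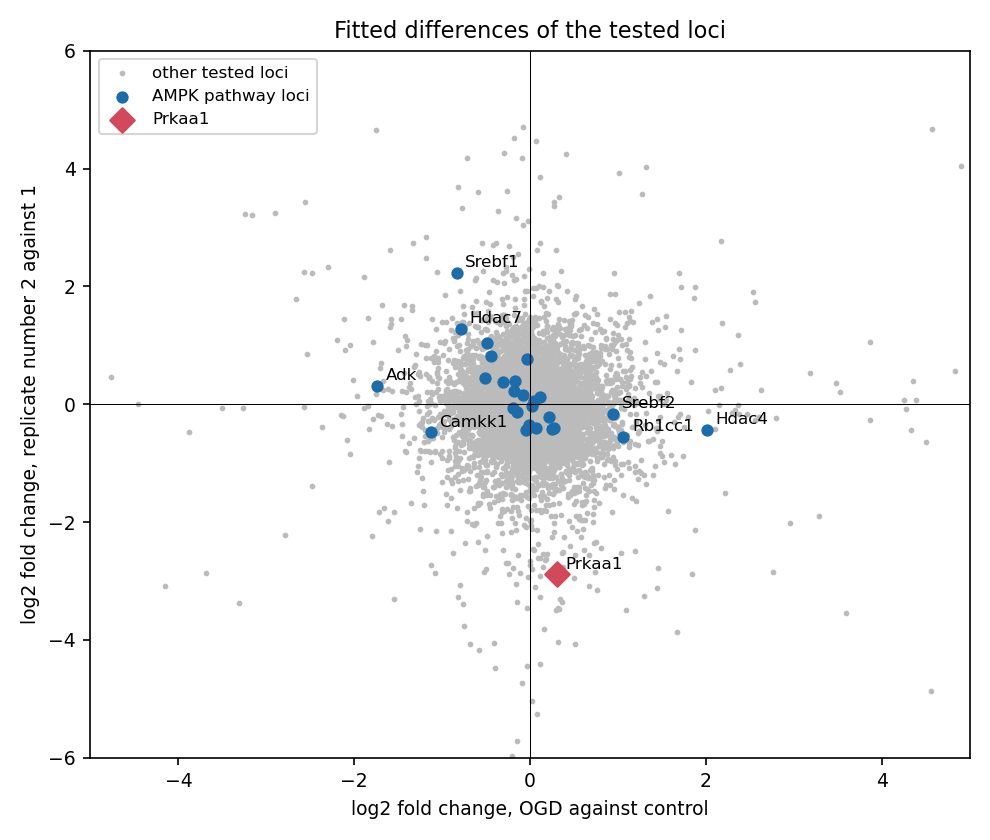
Fitted log2 fold changes of the tested loci, OGD against control on the x axis and replicate number 2 against 1 on the y axis. Blue points are the 26 AMPK pathway loci, the red diamond is Prkaa1 and grey points are the other tested loci. Of all tested loci, 35 lie outside the axes. Prkaa1 lies at 0.30 and -2.89, while Srebf1 at 2.24 is the blue point farthest from 0 on the y axis.

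The loci whose profile was most like that of Prkaa1 were found by the distance between log2(CPM + 1) values centred on each locus's mean, over 4 libraries. The search took in 5928 tested loci with a mean level within 4-fold of Prkaa1, whose median distance was 2.82. The 2 nearest loci without a gene symbol and the 5 nearest with one are described, which hold ranks 1, 2, 5, 8, 11, 13 and 15 by distance. Nearest was NONRATT008580.2 at 0.344, with 79, 9, 75 and 11 counts in control 1, control 2, OGD 1 and OGD 2. The locus n14, at 0.421, had 42, 4, 42 and 7.

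Of loci that carry a gene symbol, the nearest was AABR07064873.1, which RefSeq gives as another name of Syne2, a nuclear envelope protein gene, at 0.487. Its counts were 80, 7, 96 and 7. Ns5atp9, now Pclaf, named for a factor that binds the replication clamp PCNA, followed at 0.617 with 61, 7, 47 and 8. The class I histocompatibility locus RT1-T24-2, at 0.745, had 206, 32, 158 and 27. Rab11fip2, named for an effector of recycling endosomes, was at 0.809 with 50, 1, 44 and 2, and Pyroxd2, listed as RGD1303232, at 0.822 with 50, 11, 66 and 11. In all 7 the number 1 libraries were above the number 2 libraries, as the choice of loci fixes. None of them is in the AMPK lists.

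**Figure D4:**
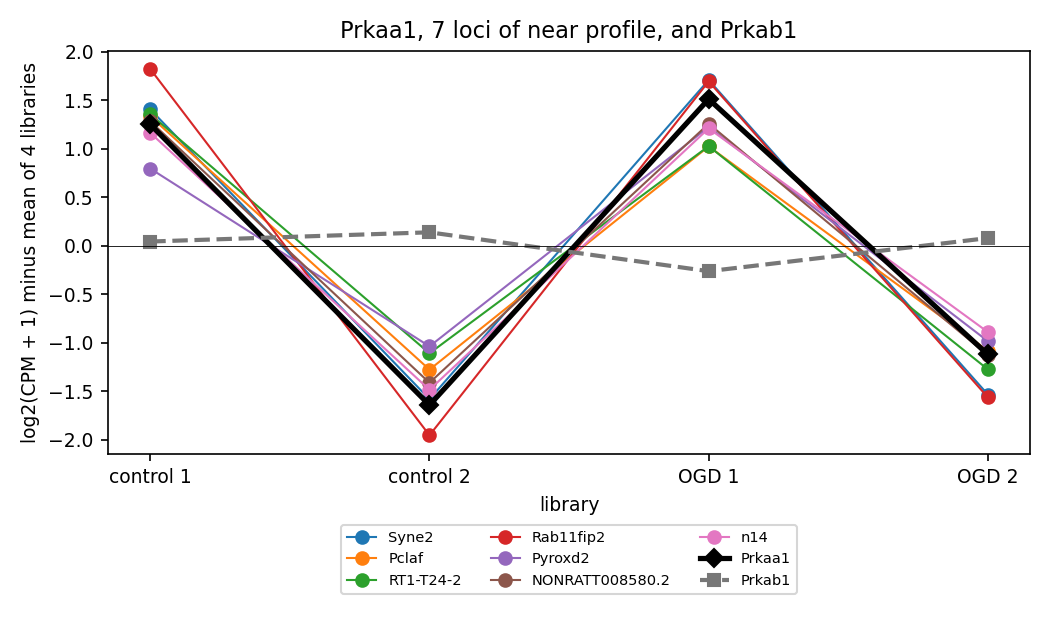
Centred log2(CPM + 1) in the 4 libraries for Prkaa1 (black diamonds), 7 loci of near profile (the nearest 5 with a gene symbol and the nearest 2 without, thin lines) and Prkab1 (dashed grey); lines only join the points of a locus. Prkaa1 and the 7 loci are above their mean in control 1 and OGD 1 and below it in control 2 and OGD 2, and Prkab1 stays near its mean.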

How the data were processed

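Per the file headers, the authors deposited whole-number read counts and FPKM for the same 20524 transcripts in each of 4 libraries. The submitters' processing notes list HISAT2 and StringTie with no version. Neither the counting program nor strand use is given in the sources used here. The notes name the mouse build mm9 while the transcripts are rat, so positions are printed without a build. Deposited FPKM served for levels per length and to recover library totals.

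Counts were summed by name and chromosome into 17290 loci. Names came from the Ensembl column, StringTie gene, RefSeq accession, AceView name or transcript identifier. Symbols came from the RefSeq table of GRCr8, used for names only. Loci passing filterByExpr (9581) were fitted in edgeR 4.0.16 (R 4.3.3) with TMM scaling and its quasi-likelihood test, once by group and once by replicate number. The Benjamini-Hochberg threshold was 0.05. Each SE was obtained from the log2 fold change and its F statistic. Ratios have exact binomial and shares Wilson 95% intervals, from scipy 1.17.1, covering counting error only. The steps were tested on simulated counts. Changes of 2-fold, 4-fold and 16-fold were called at 0%, 52% and 98% of loci by group. By number they were called at 12%, 68% and 100%. Alternatives were DESeq2 1.42.0, other scalings, no filter, transcripts unsummed, a threshold of 0.1, a second model term and each library left out.

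The members and lists were chosen with earlier results of these data known. Named were all subunit transcripts, the 4 nearest loci and any symbol-bearing locus within 0.5 Mb, the nearest profiles (5 with a gene symbol, 2 without), and per list the loci past the threshold, otherwise the 3 of smallest p in each comparison, and the most abundant. Tab1 was named after its values were seen, and 1 locus that the rule names is not reported here. Same-numbered libraries' deviations from group means correlated at 0.293 over 9581 loci, which with 2 pairs does not show pairing.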

Additional observations from a re-analysis of the deposited data

How the results depend on the processing

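Totals implied by FPKM were chosen as a scaling after seeing the data. The 8 loci changed by OGD became 38 in DESeq2, 0 without a filter (403 at an unadjusted p under 0.05), 1 with transcripts unsummed, 21 with the replicate block, 17 at a threshold of 0.1, and 0 to 12 with a library left out (0 without control 1, control 2 or OGD 1, where 354, 265 and 257 had an unadjusted p under 0.05; 12 without OGD 2). The 127 loci between numbers became 424 in DESeq2, 7 without a filter, 49 unsummed, 375 at 0.1, and 141 to 215 with a library left out (215 without OGD 2). Higher calls there were 79 of 127, 55 of 106 without TMM and 54 of 133 with totals implied by FPKM. The last 2 scalings moved the median of all loci to -0.12 and -0.19. AMPK pathway loci called between numbers were 1 in DESeq2 and 1 at 0.1 (Srebf1), and 0 to 1 with a library left out: Srebf1 without OGD replicate 2 and Tab1 without control replicate 1. By treatment 0 were called in every setting run.

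The Prkaa1 difference between numbers was -6.88 for its transcript of most counts and -3.20 to -2.62 with a library left out. By treatment it was 0.39 with the replicate block, and -1.63 to 2.54 with a library left out. Of 473 values of other named loci, 449 kept direction and side, 22 changed sign, none of which had passed, and 2 newly passed. With totals implied by FPKM, Ak3 was at -0.016 and Stk11 at -0.064 between numbers. With a library left out, log2 fold changes by treatment ran from -0.022 to 0.12 for Ppm1a, -0.24 to 0.17 for Rpl37, -0.18 to 0.026 for Ak3, -1.13 to 0.91 for Ampd2, -0.49 to 0.24 for Cab39l, -1.46 to 0.054 for Hdac7, -0.19 to 0.29 for Mark2, -0.017 to 0.66 for Pfkfb3, -1.87 to 1.04 for Srebf1 and -0.38 to 0.00033 for Prkab1. Between numbers they ran from -1.24 to 1.37 for Camkk1, -0.71 to 1.57 for Adk, -0.078 to 1.52 for Ampd2, -1.13 to 0.17 for flashoy and -0.25 to 0.15 for flawshoy. The cause was not tested. A lone library left in a group is assumed to vary like the other group.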
